A study of Homo sapiens with 4 samples.

Results

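U87 glioblastoma cells labelled crizotinib-resistant were set against U87 cells exposed to crizotinib for 24 hours, over every gene with a symbol. The comparison covers 22458 genes of the 23786 features on the arrays and asks how cells adapted to the drug differ from cells that have just met it. The resistant culture had been kept in 1 µM crizotinib for 21 days, and the acutely exposed culture received 2 µM for 24 hours. Each difference is set beside the same difference between the drug-free arrays: the culture labelled crizotinib-sensitive, read here as the control kept 21 days without drug, minus the culture given vehicle for 24 hours. All 4 cultures were U87 cells in medium with 10% serum, and RNA was extracted at the same time, per the labels. The protocol gives both 21-day cultures the same name, so the reading of resistant as the culture in drug rests on the group labels and the design text.

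Each condition was measured on 1 array, so no difference has a replicate check and no p-value is given. A gene was counted where it differed by at least 1 on the log2 scale (2-fold) and the higher drug array reached 4.96, the median over all arrays. Dose and time change together between the drug arrays, 1 µM for 21 days against 2 µM for 24 hours, and cannot be told apart. Array medians lay between 4.92 and 4.98, and the correlation across features was 0.966 between the resistant and the 24-hour crizotinib arrays against 0.985 between the drug-free arrays. In bulk RNA, fewer cells of a type and less RNA per cell cannot be told apart.

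Crizotinib blocks MET, ALK and ROS1, receptor kinases that drive growth through the RAS-ERK and PI3K-AKT pathways. Cells that leave the division cycle switch off gene sets in turn: E2F factors govern the genes of DNA replication, and the MuvB complexes with B-MYB and FOXM1 govern those of mitosis through promoter elements called CHR. SREBP factors drive sterol and fatty acid synthesis when membrane sterol is low, and NF-kB drives the genes of inflammatory cytokines. U87 is an established human glioblastoma line of mesenchymal character.

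Of the 22458 genes, 12058 passed the level filter. Among these, 658 were at least 2-fold higher in the resistant array (5.46%) and 719 at least 2-fold lower (5.96%), of which 525 and 650 code for proteins. The drug-free arrays were closer to each other, with 195 genes at least 2-fold higher in the sensitive array (1.65% of 11824) and 157 lower (1.33%). Of the 658 higher genes, 343 (52.1%, or 2.84% of all genes past the filter) had a drug-free difference under 0.5 either way. Another 120 (18.2%, or 0.995% of all) were also at least 2-fold higher between the drug-free arrays, and 3 (0.0249% of all) were at least 2-fold lower there. Of the 719 lower genes, 433 (60.2%, or 3.59% of all) had a drug-free difference under 0.5. Between the drug-free arrays 93 (12.9%, or 0.771% of all) were at least 2-fold lower too, and 2 (0.0166% of all) were higher. Subtracting each gene's drug-free difference left 513 genes at 1 or more (4.13% of the 12432 that reached the filter in any array) and 561 at -1 or less (4.51%). Across the 12058 genes the drug-pair and the drug-free differences, which share no array, had a Pearson correlation of 0.52 and a Spearman correlation of 0.431, as a description of genes and not of replicates. In the scatter of both differences, the drug-free difference had the same sign for 82.8% of higher genes and 79.8% of lower ones.

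**Figure D1:**
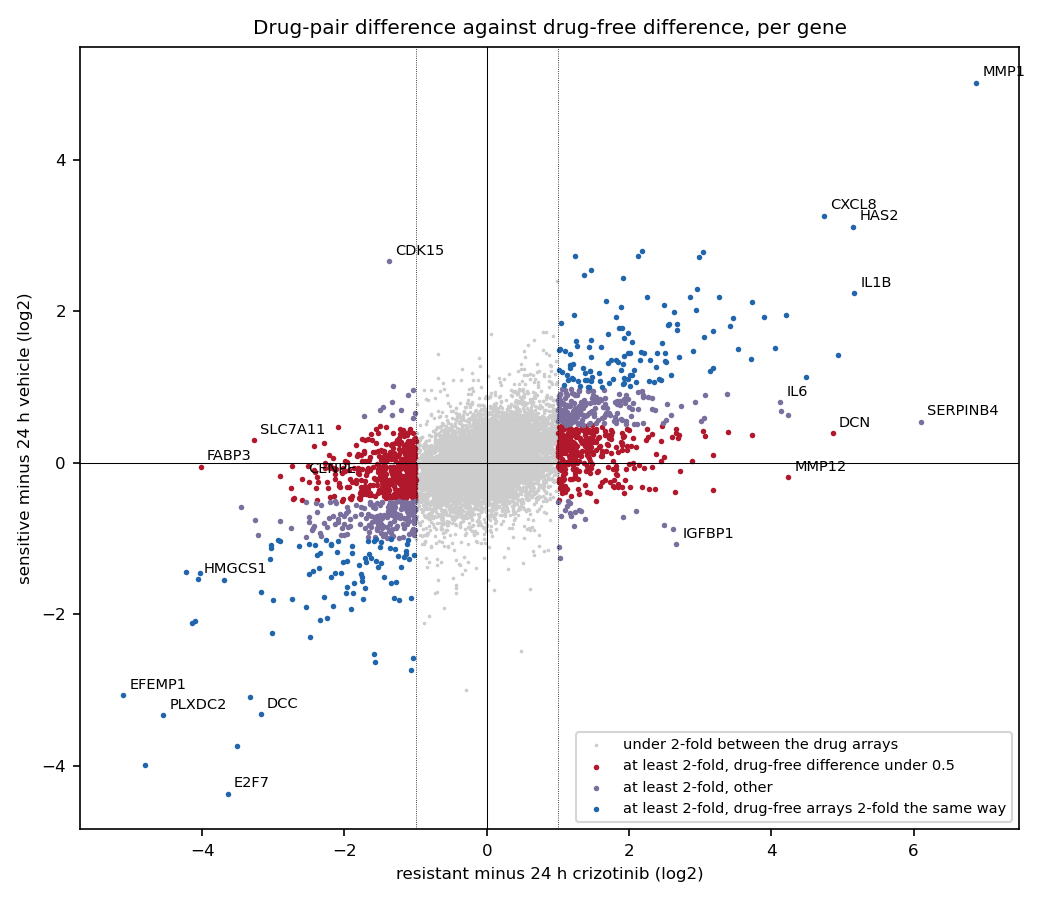
Each dot is a gene that passed the level filter, with the resistant minus 24-hour crizotinib difference across and the sensitive minus 24-hour vehicle difference up, both in log2 units. SERPINB4, DCN and MMP12 lie far right near 0 on the drug-free axis, while MMP1, E2F7 and DCC lie toward the corners where both pairs differ the same way.

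A difference between the drug arrays can come from either of them, and each counted gene was also placed against all other arrays. The resistant array stood at least 2-fold above each of the other 3 arrays for 211 genes (1.75% of those passing the filter) and at least 2-fold below each for 169 (1.4%). The 24-hour crizotinib array stood at least 2-fold below each other array for 52 genes (0.431%) and at least 2-fold above each for 159 (1.32%). Gene lists held part of each class. The mitosis list held 30 of the 169 genes low in the resistant array alone. Of the 211 high there alone, the NF-kB cytokine list held 15 and the metalloprotease list 7, and 17 were small nucleolar RNAs. The sterol list held 15 and the fatty acid synthesis list 5 of the 159 genes high in the 24-hour crizotinib array alone. Of the 52 low there alone, 13 were small nucleolar RNAs and the ERK and AP-1 lists held 3 each, FOSL1 being in both.

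**Figure D2:**
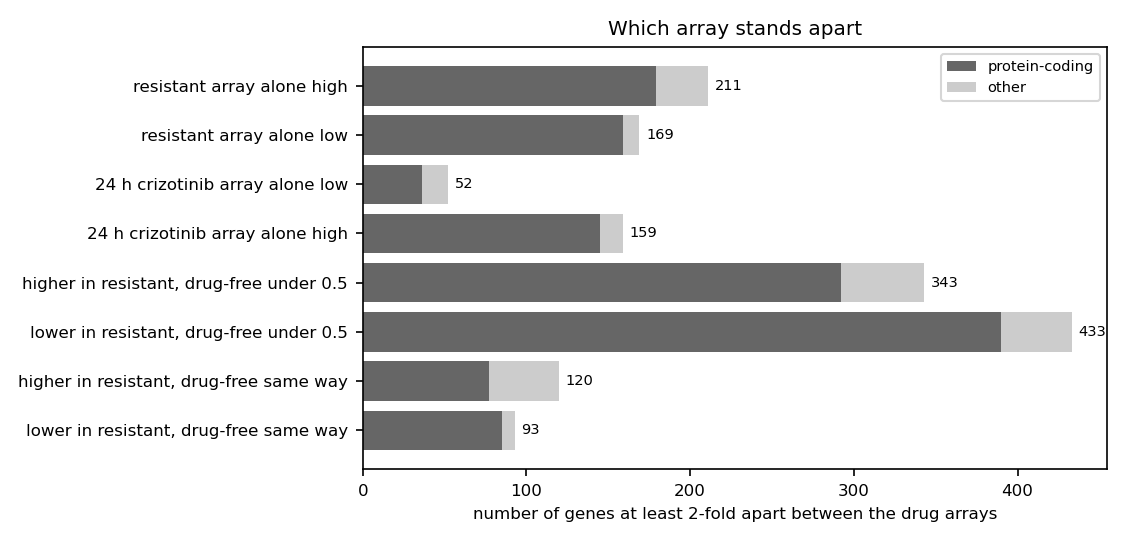
Bars count genes at least 2-fold apart between the drug arrays in each class, split into protein-coding and other genes. The resistant array stands alone for 211 high and 169 low genes, and the 24-hour crizotinib array for 52 low and 159 high genes.

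Mitotic genes were lower in resistant cells than in acutely treated cells, with almost no drug-free difference. Of 39 measured genes of mitosis and the G2/M transition, 38 passed the filter, 30 were at least 2-fold lower and 0 were higher, and for all 30 the resistant array stood at least 2-fold below each other array. The list's median difference was -1.64, against a drug-free median of 0.01. Over all genes past the filter the medians were -0.01 and 0.02, with 5.96% at least 2-fold lower and 5.46% higher. Its median level was 6.24 in the resistant array and 8.05 in the 24-hour crizotinib array, against 8.94 in the sensitive array and 8.75 in the vehicle array. All 39 genes were below vehicle after 24 hours of crizotinib as well, so the 24-hour array held a middle place.

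CENPE, the kinesin that moves chromosomes to the spindle equator, had a level of 5.72 in the resistant array and 8.32 in the 24-hour crizotinib array, beside 8.34 in the sensitive and 8.55 in the vehicle array. Its difference was -2.59 (drug-free -0.22), and the resistant array alone was low. MKI67, the proliferation antigen Ki-67, read 7.37 in the resistant array, 9.79 in the 24-hour crizotinib array, 10.19 in the sensitive array and 10.31 in the vehicle array, a difference of -2.42 (drug-free -0.12). DLGAP5, a spindle assembly protein, read 6.14 and 8.43 in the resistant and 24-hour crizotinib arrays, against 9.24 and 8.98 in the sensitive and vehicle arrays. Here the 24-hour array was somewhat below both drug-free arrays and the resistant array far below all others. Kinetochore genes showed the same order: NUF2 differed by -2.16, the checkpoint kinase BUB1 by -2.15 and NDC80 by -2.13, with drug-free differences between -0.09 and -0.07. The mitotic kinase PLK1 read 7.30 in the resistant array and 9.01 in the 24-hour crizotinib array, against 10.41 in the sensitive and 10.10 in the vehicle array, a difference of -1.71. Cyclins B1 and B2 (CCNB1, CCNB2), which activate CDK1, differed by -1.66 and -1.75 (drug-free 0.04 and 0.31), and FOXM1, the transcription factor of this gene set, by -1.72 (drug-free 0.15). Members under 2-fold included the Aurora kinase AURKB at -0.88 (drug-free 0.06), the checkpoint kinase TTK at -0.80 (drug-free 0.22) and the ubiquitin-conjugating enzyme UBE2C at -0.60 (drug-free -0.00). SPC25, a kinetochore subunit, differed by -1.83 (drug-free -0.16) but with both drug arrays below the level filter, and BUB3 was above 0 at 0.11 (drug-free -0.16).

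The promoters of mitotic genes share a short sequence that can be seen in these 2 examples, the 150 bases before the start site of PLK1 (chr16:23678739-23678888, plus strand) and of CCNB2 (chr15:59104996-59105145, plus strand), from RefSeq on GRCh38.p14, with the CHR element TTTGAA in capitals.
PLK1: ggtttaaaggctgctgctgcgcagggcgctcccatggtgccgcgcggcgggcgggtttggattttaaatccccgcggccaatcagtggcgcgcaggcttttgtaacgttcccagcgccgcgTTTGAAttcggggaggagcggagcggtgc
CCNB2: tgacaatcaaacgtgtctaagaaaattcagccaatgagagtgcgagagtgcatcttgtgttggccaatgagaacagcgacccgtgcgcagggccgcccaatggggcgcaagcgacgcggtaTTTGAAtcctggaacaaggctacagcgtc
In both genes the element begins 29 bases before the start site. With both strands searched over 250 bases before to 50 after the start, TTTGAA was found in 23 of 33 mitotic promoters at hand (69.7%), against 15.4% of all 27305 promoters and 10% of promoters of genes past the level filter. Among genes for which the resistant array alone was low, 60 of 135 promoters held it (44.4%), a set that includes most of the mitotic list. It was in 17 of 124 (13.7%) where the 24-hour crizotinib array alone was high. A match is a description of letters and not a bound site.

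DNA replication genes parted from mitotic genes, since the drug arrays differed little. Of 41 measured genes of replication and the G1/S transition, 40 passed the filter, with 23 of the 41 above 0 and 18 below. By 2-fold or more, 1 was lower and 0 were higher, beside 5.96% and 5.46% over all genes. The median difference was 0.08, and the drug-free median was 0.25. All 41 were below vehicle in the 24-hour crizotinib array and below the sensitive array in the resistant array, and the list's median level was 6.57 in the resistant array and 6.61 in the 24-hour crizotinib array, against 8.0 and 7.87 in the sensitive and vehicle arrays. Replication genes thus stood at about the same reduced level in both drug arrays, and mitotic genes lower in the resistant array.

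PRIM1, the primase catalytic subunit, was the member at least 2-fold lower, with 5.29 in the resistant array and 6.71 in the 24-hour crizotinib array, against 7.89 and 7.64 in the sensitive and vehicle arrays. MCM10, an initiation factor, followed at -0.90 (drug-free 0.02) and CDC6, which loads the helicase, at -0.75 (drug-free -0.07). At the other end lay RFC2, a clamp loader subunit, at 0.80 (drug-free 0.27), and the helicase subunits MCM4 and MCM2, both at 0.62 (drug-free 0.25 and 0.04). PCNA, the sliding clamp, read 7.90 and 7.55 in the resistant and 24-hour crizotinib arrays, against 8.97 and 8.61 in the sensitive and vehicle arrays. Cyclin E2 (CCNE2) read 5.82 and 5.86 in the drug arrays, resistant first, with 7.98 and 7.23 in the sensitive and vehicle arrays, and E2F1 differed by 0.07 (drug-free 0.15). The replication promoters carry another sequence, shown for GINS2 (chr16:85688955-85689104, minus strand) and MCM6 (chr2:135876444-135876593, minus strand), both helicase subunits, with matches to the E2F-type element TTTNNCGC in capitals on either strand.
GINS2: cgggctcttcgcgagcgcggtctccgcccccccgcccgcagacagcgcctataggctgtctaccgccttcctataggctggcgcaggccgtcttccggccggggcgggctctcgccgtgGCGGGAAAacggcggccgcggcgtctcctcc
MCM6: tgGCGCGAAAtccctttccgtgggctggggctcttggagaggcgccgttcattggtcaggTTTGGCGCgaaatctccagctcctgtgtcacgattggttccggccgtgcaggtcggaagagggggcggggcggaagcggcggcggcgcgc
This element was in 22 of 36 replication promoters (61.1%) against 6.9% of all promoters and 10.3% of those of genes past the filter, and in 3 of 33 mitotic ones (9.09%), whereas TTTGAA was in 1 of 36 replication promoters (2.78%). The elements shown for PLK1 and CCNB2 and for GINS2 and MCM6 belong to lists whose drug-pair medians were -1.64 and 0.08.

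**Figure D3:**
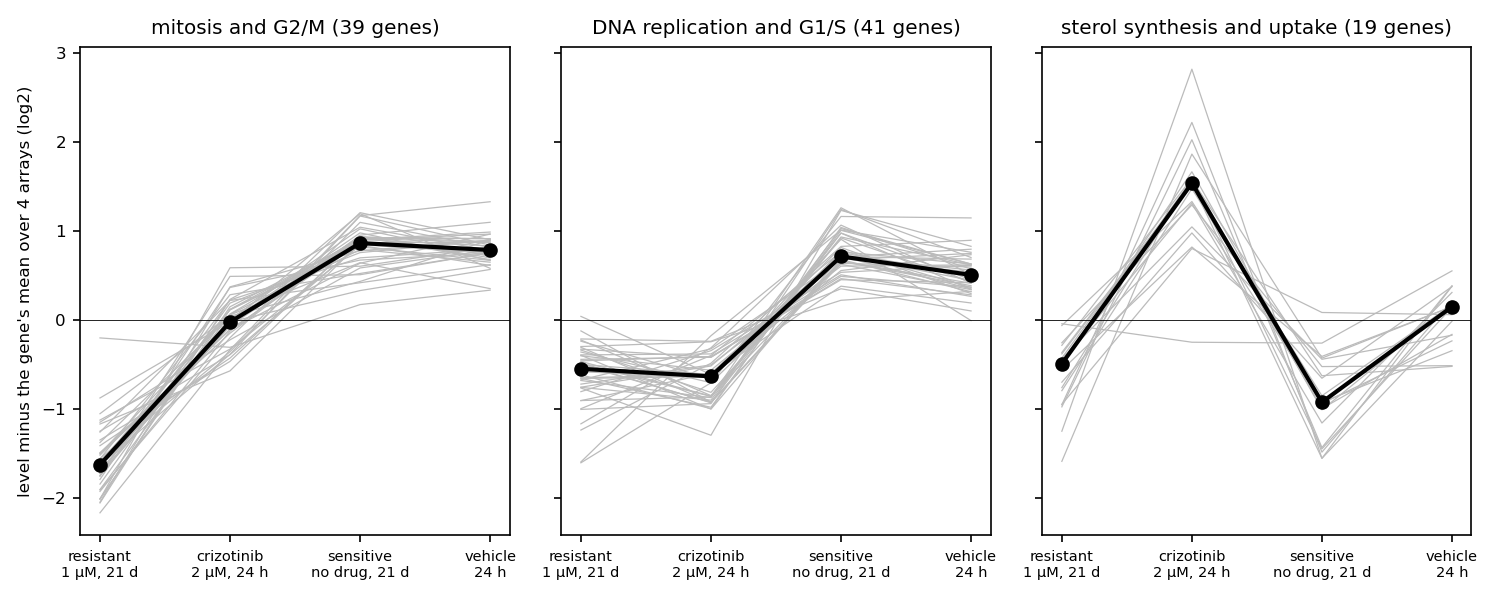
Grey lines join the level of one gene in the 4 arrays after subtracting its mean over them (log2), and black points are list medians. Mitotic genes are lowest in the resistant array (39 genes), replication genes are about equally low in both drug arrays (41 genes), and sterol genes peak in the 24-hour crizotinib array (19 genes).

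Other chromosome gene lists leaned lower too, though by less than the mitotic list and not in every member. Their counts stand beside 5.96% lower and 5.46% higher over all genes. Of 30 measured clustered histone genes, 18 passed the filter, 7 were at least 2-fold lower and 1 higher, with a median of -0.41 (drug-free -0.02). H2BC14 read 5.66 in the resistant array and 8.05 in the 24-hour crizotinib array, against 9.96 and 10.14 in the sensitive and vehicle arrays, and H3C11 differed by -2.06 (drug-free -0.32). H2BC21, whose transcript can be polyadenylated outside S phase, was the higher member, with 7.68 in the resistant array and 5.58 in the 24-hour crizotinib array, against 5.16 and 5.80 in the sensitive and vehicle arrays. Because histone copies are nearly the same in sequence, a probe may read several, and single members are uncertain. Of 11 lamina and HMGB genes, 4 were at least 2-fold lower: the chromatin protein HMGB2 at -2.12, lamin B1 (LMNB1) at -1.41, the lamina-associated TMPO at -1.31 and the lamin B receptor LBR at -1.08, with drug-free differences from -0.08 to 0.13. LMNB1 read 5.43 in the resistant array and 6.84 in the 24-hour crizotinib array, against 8.51 and 8.46 in the sensitive and vehicle arrays. Of the 11 genes 5 were above 0, among them HMGA1 at 0.38 (drug-free 0.13) and HMGA2 at 0.43 (drug-free 0.32). Recombination and repair genes had a median of -0.43 (drug-free 0.16). Of 21 (19 past the filter) 2 were at least 2-fold lower (5.96% over all genes), the helicases BLM at -1.29 (drug-free 0.04) and BRIP1 just past 2-fold. SKP2, the ubiquitin ligase subunit that degrades p27, differed by -1.68 (drug-free -0.09) and the survivin gene BIRC5 by -1.30 (drug-free -0.06), both named here after their values were seen. Cell cycle inhibitors did not mirror this by size: CDKN1A, the CDK inhibitor p21, read 7.79 and 6.94 in the resistant and 24-hour crizotinib arrays, against 6.87 and 7.03 in the sensitive and vehicle arrays, a difference of 0.85. CDKN1B, the inhibitor p27, was at -0.55 (drug-free -0.26). Cyclin D1 (CCND1) was at least 2-fold higher at 1.78 (drug-free -0.23) and CDK6, its kinase partner, at 1.11 (drug-free 0.56).

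Sterol synthesis genes were far lower in the resistant array, and here it was the 24-hour array that stood apart. Of 19 measured members, all past the filter, 18 were at least 2-fold lower and 0 higher, beside 5.96% and 5.46% over all genes. For 15 of them the 24-hour crizotinib array was at least 2-fold above each other array, and for 2, ACAT2 and EBP, the resistant array was at least 2-fold below each. The median difference was -1.90. The drug-free median was -0.83, so part of the same direction was present between cultures without drug, and the median after subtracting each gene's drug-free difference was -1.18.

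HMGCS1, the cytosolic HMG-CoA synthase, read 6.17 in the resistant array and 10.23 in the 24-hour crizotinib array, against 5.86 in the sensitive and 7.40 in the vehicle array. Its difference of -4.06 (drug-free -1.54) was the largest of the list, and the resistant level lay between the drug-free levels. IDI1, the isopentenyl diphosphate isomerase, read 5.81 and 8.98 in the resistant and 24-hour crizotinib arrays, against 5.28 and 6.98 in the sensitive and vehicle arrays. MSMO1, a sterol C-4 methyl oxidase, differed by -3.00 (drug-free -1.81), DHCR7, which completes cholesterol, by -2.35 (drug-free -1.19), and the sterol-sensing regulator INSIG1 by -1.87 (drug-free -1.59). In other genes the drug-free arrays were level: TM7SF2, a sterol reductase, differed by -2.00 (drug-free -0.10), SC5D, a desaturase, by -1.55 (drug-free -0.01) and NSDHL by -1.48 (drug-free -0.27). ACAT2, the acetoacetyl-CoA thiolase at the head of the pathway, read 5.19 and 8.63 in the resistant and 24-hour crizotinib arrays, against 6.34 and 6.92 in the sensitive and vehicle arrays, so it was lowest in the resistant array and highest in the acute array. PMVK, the phosphomevalonate kinase, was the member above 0, at 0.21 (drug-free -0.81). SREBF2, the gene of the controlling factor SREBP-2, differed by -1.77 (drug-free -1.46).

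Sterol promoters often hold the CCAAT box, bound by NF-Y, a partner of SREBP. The promoter of MSMO1 (chr4:165327519-165327668, plus strand) is shown because it holds 3 within 150 bases of the start site, in capitals.
MSMO1: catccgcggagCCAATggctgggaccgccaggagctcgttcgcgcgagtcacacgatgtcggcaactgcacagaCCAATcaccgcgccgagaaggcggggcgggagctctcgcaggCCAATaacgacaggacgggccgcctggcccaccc
CCAAT was in 14 of 17 sterol promoters (82.4%) against 35.7% of all, and also in 26 of 33 mitotic promoters (78.8%), so it does not separate lists that part in these arrays. The sterol regulatory element TCACNCCAC was in 1 of the 17 (5.88%) against 1.15% of all promoters, and no match says only that these letters are not in this window.

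Fatty acid synthesis followed the sterol genes, with 8 of 14 measured members (12 past the filter) at least 2-fold lower, 0 higher and a median of -1.22 (drug-free -0.36). SCD, the stearoyl-CoA desaturase, read 8.05 in the resistant array and 11.07 in the 24-hour crizotinib array, against 7.47 and 9.72 in the sensitive and vehicle arrays. FADS2, a desaturase of polyunsaturated fatty acids, differed by -3.04 (drug-free -1.08), fatty acid synthase FASN by -2.50 (drug-free -0.78) and the acetyl-CoA synthetase ACSS2 by -2.07 (drug-free -0.31). ELOVL5 and ELOVL6, which elongate fatty acids, were level between the drug arrays at -0.00 and -0.05 (drug-free 0.07 and -0.02). Genes of fatty acid binding, uptake and lipid droplets were mixed, with a median of 0.38 (drug-free -0.04). Of 15 measured, 11 passed the filter and 12 were above 0. By 2-fold or more, 2 were higher and 2 lower, beside 5.46% and 5.96% over all genes. The higher members were PLIN3, a lipid droplet coat protein, and ANGPTL4, a lipase inhibitor, both at 1.01 (drug-free 0.15 and 0.09). FABP3, a fatty acid binding protein, read 4.40 in the resistant array and 8.42 in the 24-hour crizotinib array, against 3.91 and 3.96 in the sensitive and vehicle arrays. Its relative FABP7 read 3.07 and 5.50 in the drug arrays, resistant first, and 3.36 and 3.45 in the sensitive and vehicle arrays, so both were high in the acute array alone. PPARGC1A, the coactivator PGC-1alpha, had the same shape, with 6.10 and 8.85 in the resistant and 24-hour crizotinib arrays against 5.64 and 5.97 in the sensitive and vehicle arrays. ABCA1, the cholesterol exporter, ran the other way at 1.48 (drug-free 0.15). It was the 1 member called of 8 measured genes of cholesterol efflux and its control (6 past the filter), beside 5.46% higher over all genes. Of the 8, 5 were above 0 and 3 below, with a median of 0.15 (drug-free 0.08), so the list did not share the size of ABCA1.

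Cytokines and chemokines under NF-kB stood higher in the resistant array, and several were also higher between the drug-free cultures. Of 23 measured members, 20 reached the level filter. Of these, 19 stood at least 2-fold higher and 0 lower, beside 5.46% and 5.96% over all genes. For 15 the resistant array was at least 2-fold above each other array. The median difference was 2.67. The drug-free median was 0.64 and the median after subtracting each gene's drug-free difference was 1.92. Drug-free differences varied among members. Of the 19 higher ones, 3 had a drug-free difference under 0.5 and 9 were also at least 2-fold higher between the drug-free arrays. The rest, IL6 and PTGS2 among them, fell in neither group.

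IL6, the cytokine, read 9.79 in the resistant array and 5.67 in the 24-hour crizotinib array, against 6.48 and 5.68 in the sensitive and vehicle arrays. PTGS2, the cyclooxygenase COX-2, read 9.43 and 5.20 in the resistant and 24-hour crizotinib arrays, against 5.90 and 5.28 in the sensitive and vehicle arrays. Both were high in the resistant array alone, with differences of 4.12 and 4.23 and drug-free differences of 0.80 and 0.63. Of the chemokines, CCL20 at 2.89 (drug-free 0.02) and CCL5 at 2.45 (drug-free 0.03) had level drug-free arrays. CCL2, a monocyte chemokine, read 8.83 and 6.34 in the drug arrays, resistant first, and 5.94 and 6.76 in the sensitive and vehicle arrays, so its drug-free difference of -0.82 ran against the 2.49 of the drug pair. By contrast CXCL8, the neutrophil chemokine interleukin-8, read 11.36 in the resistant array and 6.62 in the 24-hour crizotinib array, against 10.01 in the sensitive and 6.75 in the vehicle array. Of its difference of 4.74, the drug-free pair already showed 3.26. IL1B, interleukin-1 beta, read 11.83 and 6.67 in the resistant and 24-hour crizotinib arrays, against 9.61 and 7.37 in the sensitive and vehicle arrays, a difference of 5.16 (drug-free 2.24). Also of this kind were CXCL3 at 4.20 (drug-free 1.95), CXCL5 at 4.05 (drug-free 1.51), CXCL1 at 3.73 (drug-free 2.12) and CSF3, the granulocyte growth factor, at 3.47 (drug-free 1.90). The feedback inhibitors of NF-kB were also higher, TNFAIP3 (A20) at 2.67 (drug-free 1.76) and NFKBIA at 1.23 (drug-free 0.72). CXCL1 and CXCL3 are close paralogs and their probes may share signal. TNFAIP6, a hyaluronan-binding protein, was the lowest member and the one past the filter that was not called, with 5.22 in the resistant array and 6.05 in the 24-hour crizotinib array, against 4.87 and 5.79 in the sensitive and vehicle arrays. VCAM1, the adhesion molecule, was at -0.04 and CCL7 at -0.29 (drug-free 0.31 and 0.43), both below the level filter.

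Promoters of 3 of these genes are shown with matches to the kappaB-type element GGNNTTTCC in capitals: CXCL8 (chr4:73740419-73740568, plus strand), IL6 (chr7:22727050-22727199, plus strand) and CXCL3 (chr4:74038690-74038839, minus strand).
CXCL8: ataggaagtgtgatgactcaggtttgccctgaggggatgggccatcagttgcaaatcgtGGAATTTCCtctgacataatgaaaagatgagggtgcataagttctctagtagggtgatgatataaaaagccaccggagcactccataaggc
IL6: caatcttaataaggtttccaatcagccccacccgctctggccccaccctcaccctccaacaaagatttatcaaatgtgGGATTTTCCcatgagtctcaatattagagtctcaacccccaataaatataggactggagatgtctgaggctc
CXCL3: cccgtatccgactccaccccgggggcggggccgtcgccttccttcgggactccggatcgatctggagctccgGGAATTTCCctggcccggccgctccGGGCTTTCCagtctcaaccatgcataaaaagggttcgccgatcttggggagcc
The element lay in 13 of 19 promoters of the list (68.4%) against 6.26% of all promoters and 6.63% of those of genes past the level filter. In the other lists it was in 17.6% of sterol, 15.4% of fatty acid synthesis, 13.9% of replication and 0 of 33 mitotic promoters. Among genes at least 2-fold higher in the resistant array 49 of 435 promoters held it (11.3%), and among those lower 32 of 564 (5.67%). By class it was in 21 of 136 promoters of genes high in the resistant array alone (15.4%). It was in 5 of 28 of those of genes low in the 24-hour crizotinib array alone (17.9%). The higher genes include 19 members of the cytokine list and the genes high in the resistant array alone include 15, so these shares are not separate from the list's. It was present both in IL6, with a drug-free difference of 0.80, and in CXCL8, with 3.26.

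The wider interleukin-1 family shared the direction, with 6 of 14 measured members (8 past the filter) at least 2-fold higher and 0 lower. IL33, an alarmin, read 5.98 in the resistant array and 2.58 in the 24-hour crizotinib array, against 3.13 and 2.72 in the sensitive and vehicle arrays. The receptor antagonists IL36RN and IL1RN, which block signalling of this family, differed by 3.06 (drug-free 0.90) and 1.67 (drug-free 0.16), and IL1A by 3.18 (drug-free 1.26). Both agonist and antagonist genes were therefore on the higher side. IL18 and IL36G were level at 0.03 and 0.01 (drug-free 0.10 and -0.01) and below the level filter. LIF, a cytokine of the interleukin-6 family and a member of the cytokine list, differed by 3.06 (drug-free 0.59). Interferon-stimulated genes did not share this direction as a list: of 18 measured, 6 were above 0 and 12 below, with a median of -0.15 (drug-free -0.02). Of the 14 past the filter, 0 were higher by 2-fold or more and 2 lower, beside 5.46% and 5.96% over all genes. The lower ones were IFIT1 at -2.22 (drug-free -0.72) and XAF1 at -1.35 (drug-free -0.47).

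Matrix metalloproteases, which cut collagen and other matrix proteins, included the largest difference of all protein-coding genes. MMP1, the interstitial collagenase, read 10.57 in the resistant array and 3.69 in the 24-hour crizotinib array, against 9.23 in the sensitive and 4.21 in the vehicle array. Its difference of 6.88 (118-fold) stood beside a drug-free difference of 5.02, so both 21-day cultures were high and both 24-hour cultures low. Its neighbours on chromosome 11 had another pattern. MMP12, the macrophage elastase, read 7.95 in the resistant array and 3.71 in the 24-hour crizotinib array, against 3.29 and 3.48 in the sensitive and vehicle arrays, and MMP7, matrilysin, 7.62 and 3.48 in the drug arrays, resistant first, against 3.68 and 3.00 in the sensitive and vehicle arrays. MMP3, stromelysin, differed by 2.65 (drug-free 0.40), and MMP10 and MMP13 were below the level filter at 0.63 and 0.53 (drug-free 0.22 and -0.18). In all, 7 of 19 proteases and inhibitors (14 past the filter) were higher by 2-fold or more and 1 lower, beside 5.46% and 5.96% over all genes. The lower one was TIMP4 at -1.78 (drug-free -0.47), while the inhibitor TIMP1 was higher at 1.46 (drug-free 0.29). MMP2 and MMP14, both abundant, were level at -0.19 and 0.09 (drug-free -0.15 and 0.14). TIMP3 read 8.37 and 8.65 in the drug arrays, resistant first, but 5.33 in the sensitive and 8.33 in the vehicle array, so for this gene the drug arrays were alike and the sensitive array stood apart.

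SERPINB4, a serine and cysteine protease inhibitor of squamous epithelium, read 8.51 in the resistant array and 2.40 in the 24-hour crizotinib array, against 2.58 in the sensitive and 2.03 in the vehicle array. Its difference of 6.11 (drug-free 0.54) was the largest once the drug-free difference was subtracted, at 5.56. Its near-identical neighbour SERPINB3 read 2.17 and 1.83 in the drug arrays, and SERPINB10 differed by 3.17 (drug-free -0.35). Decorin (DCN), a proteoglycan that binds collagen, read 8.29 in the resistant array and 3.43 in the 24-hour crizotinib array, against 3.27 and 2.88 in the sensitive and vehicle arrays, and lumican (LUM) differed by 2.19 (drug-free 0.94). Of 22 matrix proteoglycans and glycoproteins (16 past the filter) 6 were higher by 2-fold or more and 0 lower, beside 5.46% and 5.96% over all genes. By contrast, of 21 collagens (15 past the filter) none was past 2-fold in either direction and the median was 0.13 (drug-free 0.14). EHF, an epithelial ETS factor, read 8.74 in the resistant array and 4.26 in the 24-hour crizotinib array, against 5.23 and 4.10 in the sensitive and vehicle arrays. Of 18 epithelial and keratinocyte markers 3 passed the filter, with 0 higher by 2-fold or more and 1 lower (EPCAM at -1.13, drug-free -0.39). Over all genes the shares were 5.46% and 5.96%, and with so few members the list cannot show whether it followed EHF. PI3, also past the filter, read 8.36 and 7.88 in the drug arrays, resistant first, against 4.89 and 7.37 in the sensitive and vehicle arrays. KRT5, KRT14, CDH1 and IVL were below the level filter in every array. HAS2, which makes hyaluronan, read 9.21 in the resistant array and 4.06 in the 24-hour crizotinib array, against 8.64 and 5.52 in the sensitive and vehicle arrays.

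**Figure D4:**
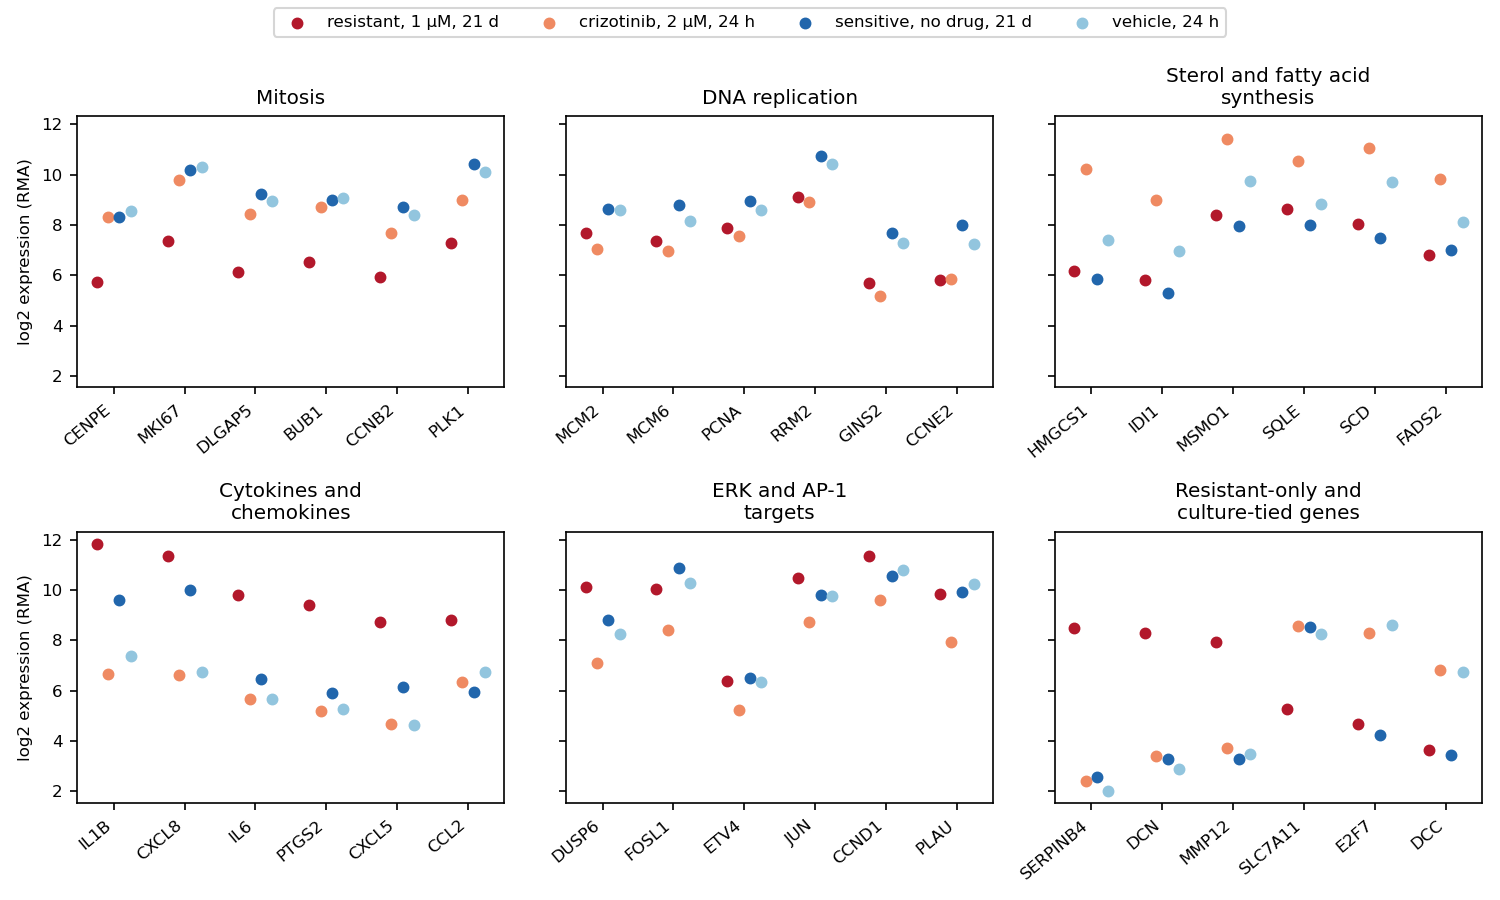
Each point is the log2 expression level of a gene in one array, with the 4 arrays side by side in the order of the legend. CENPE is low in the resistant array alone (5.72), HMGCS1 high in the 24-hour crizotinib array alone (10.23), DUSP6 low in that array (7.11), and E2F7 and DCC separate the 21-day from the 24-hour cultures.

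Genes that report ERK signalling were higher in the resistant array, with the 24-hour crizotinib array the lowest of the 4 for 14 of them. Of 21 measured ERK feedback and target genes 19 passed the filter and 19 were above 0. In all, 7 were at least 2-fold higher and 0 lower, beside 5.46% and 5.96% over all genes, and the median was 0.85 (drug-free -0.10). DUSP6, the phosphatase that turns off ERK, read 10.13 in the resistant array and 7.11 in the 24-hour crizotinib array, against 8.83 in the sensitive and 8.28 in the vehicle array. It was at once at least 2-fold above all other arrays in the resistant array and at least 2-fold below them in the acute array. FOSL1, an AP-1 subunit, read 10.04 and 8.42 in the resistant and 24-hour crizotinib arrays, against 10.89 and 10.29 in the sensitive and vehicle arrays, so the resistant level was near the drug-free levels. IER3 differed by 1.84 (drug-free 0.14), CCND1 by 1.78 (drug-free -0.23), the ETS factor ETV4 by 1.18 (drug-free 0.17) and the feedback inhibitor SPRY2 by 1.08 (drug-free -0.22). MYC, with 7.56 and 6.66 in the resistant and 24-hour crizotinib arrays against 8.21 and 8.13 in the sensitive and vehicle arrays, was under 2-fold at 0.89. ETV1, a relative of ETV4, was at -0.95 (drug-free -0.05).

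Of 17 AP-1 and immediate early genes (16 past the filter) 13 were above 0 and 4 below. By 2-fold or more, 6 were higher and 1 lower, beside 5.46% and 5.96% over all genes. FOSL1 and IER3 were counted in the ERK list too. JUN, the partner of FOS in AP-1, read 10.50 in the resistant array and 8.72 in the 24-hour crizotinib array, against 9.80 and 9.78 in the sensitive and vehicle arrays. FOS was level at 0.03 (drug-free -0.34) and EGR1 at 0.93 (drug-free 0.24), and NR4A2, an orphan nuclear receptor, was high in the acute array alone, at -1.31 (drug-free 0.39). Urokinase (PLAU), which activates plasminogen, read 9.85 and 7.94 in the resistant and 24-hour crizotinib arrays, against 9.94 and 10.26 in the sensitive and vehicle arrays, and its receptor PLAUR differed by 1.66 (drug-free 0.37). Tissue factor (F3), the initiator of clotting, was high in the resistant array, with 9.40 there and 6.02 in the 24-hour crizotinib array, against 7.44 and 6.52 in the sensitive and vehicle arrays. YAP and TEAD targets had 6 of 18 (17 past the filter) at least 2-fold higher and 0 lower, beside 5.46% and 5.96% over all genes. Among the higher ones were CCN1 at 2.20 (drug-free 0.90) and CCN2 at 1.24 (drug-free 0.89). TNFRSF12A, the TWEAK receptor, was low in the acute array alone, with 10.03 in the resistant and 8.01 in the 24-hour crizotinib array, against 10.04 and 9.82 in the sensitive and vehicle arrays.

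Growth factor ligands had 6 of 26 members (18 past the filter) at least 2-fold higher and 1 lower, beside 5.46% and 5.96% over all genes. The EGF receptor ligands EREG and HBEGF differed by 2.02 (drug-free 1.16) and 1.73 (drug-free -0.25), and neuregulin NRG1 by 1.02 (drug-free -0.26). FGF7 read 6.34 in the resistant array and 3.97 in the 24-hour crizotinib array, against 2.93 and 3.27 in the sensitive and vehicle arrays, and FGF2 differed by 1.6 (drug-free 0.85). ANGPT1, the ligand of the TIE2 receptor, was the lower member, with 4.28 and 6.77 in the resistant and 24-hour crizotinib arrays against 5.48 and 5.74 in the sensitive and vehicle arrays. Of 34 receptor tyrosine kinases 17 passed the filter, and the median over all 34 was 0.00 (drug-free 0.05). Among those 17, ROR1 was at least 2-fold higher at 1.52 (drug-free 0.82), and PDGFRB at -1.46 (drug-free -0.96) and EPHA5 at -1.45 (drug-free 0.05) were lower, beside 5.46% higher and 5.96% lower over all genes. Of the drug's own targets, MET read 9.94 and 9.88 in the resistant and 24-hour crizotinib arrays, against 10.32 and 10.17 in the sensitive and vehicle arrays. ROS1 read 6.71 and 5.04 in the drug arrays, resistant first, and 6.79 and 4.65 in the sensitive and vehicle arrays, so its difference of 1.67 was smaller than the drug-free 2.14. ALK was below the filter in every array, and the MET ligand HGF differed by -0.60 (drug-free -0.24). The drug exporter ABCB1 was below the filter in every array, and of 19 drug efflux and cytochrome genes 9 passed the filter and 2 were at least 2-fold higher (5.46% over all genes), CYP26B1 at 1.46 (drug-free -0.07) and CYP3A5 at 1.05 (drug-free 0.28).

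IGF binding proteins, which hold insulin-like growth factors, had 4 of 8 members (6 past the filter) at least 2-fold higher and 0 lower. Over all genes the shares were 5.46% and 5.96%. IGFBP3 read 10.39 in the resistant array and 7.77 in the 24-hour crizotinib array, against 7.06 and 7.93 in the sensitive and vehicle arrays, and IGFBP4 differed by 2.22 (drug-free -0.06). In the TGF-beta superfamily the activin subunit INHBA differed by 2.49 (drug-free 0.08) and BMP2 by 2.52 (drug-free 1.33). Among Wnt modulators the antagonists parted, SFRP4 at 1.78 and DKK1 at 1.99 (drug-free -0.09 and 1.11) but SFRP2 at -2.09 (drug-free -0.78).

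Stress lists came next, and their counts stand beside 5.46% higher and 5.96% lower over all genes. The p53 targets had a median of 0.42 (drug-free -0.05) with 5 of 21 at least 2-fold higher, among them GADD45A at 1.35 (drug-free 0.28) and SESN2 at 1.29 (drug-free 0.10). Hypoxia targets had a median of 0.24 beside a drug-free median of -0.50, with adrenomedullin (ADM) at 2.70 (drug-free 0.37) and the collagen cross-linking enzyme LOX at 1.91 (drug-free 0.26). FOXO targets had 3 of 23 (17 past the filter) higher and 2 lower. CITED2, SOD2 and PINK1 were at 1.21, 1.19 and 1.02 (drug-free -0.08, 0.92 and -0.07), while SESN3 at -2.03 and CCNG2 at -1.95 (drug-free -0.86 and -0.85) were high in the acute array alone. SLC7A11, the cystine importer that feeds glutathione synthesis, read 5.30 in the resistant array and 8.57 in the 24-hour crizotinib array, against 8.54 and 8.24 in the sensitive and vehicle arrays. It was low in the resistant array alone. Of 24 NRF2 list members (20 past the filter) 5 were at least 2-fold lower and 1, SOD2, higher. Among the lower ones NQO1 differed by -1.47 (drug-free 0.15), AKR1B10 by -2.73 (drug-free -0.47) and AKR1C3 by -3.05 (drug-free -1.27). AKR1C3 was not low in the resistant array alone but high in the 24-hour crizotinib array alone. In all, 17 members were below 0 and 7 above, with GCLC at 0.76 (drug-free 0.38). ATF4 targets had a median of 0.41 beside a drug-free 0.24, and 0.10 after subtracting each gene's drug-free difference. Of 23, 4 were at least 2-fold higher and 1, SLC7A11, lower. Among the higher ones ALDH1L2, a mitochondrial folate enzyme, was at 1.89 (drug-free 2.06) and STC2, a secreted glycoprotein, at 1.97 (drug-free 0.44). The small heat shock protein CRYAB differed by 2.69 (drug-free 0.33), but 15 of 17 heat shock genes were under 2-fold. Of the 16 past the filter 2 were higher (5.46% over all genes) and 0 lower. Among lists with 0 members past 2-fold in either direction were autophagy, the unfolded protein response, mitochondrial ribosomal proteins and collagens, with medians from -0.18 to 0.13. In the glioma stem list 4 of 20 measured members passed the filter and 0 were called, and HES1, a Notch target below the filter, differed by 1.16 (drug-free 0.93). Glycolysis had a median of 0.01, lysosome genes -0.02, respiratory chain genes -0.15 and cytosolic ribosomal proteins 0.19.

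**Figure D5:**
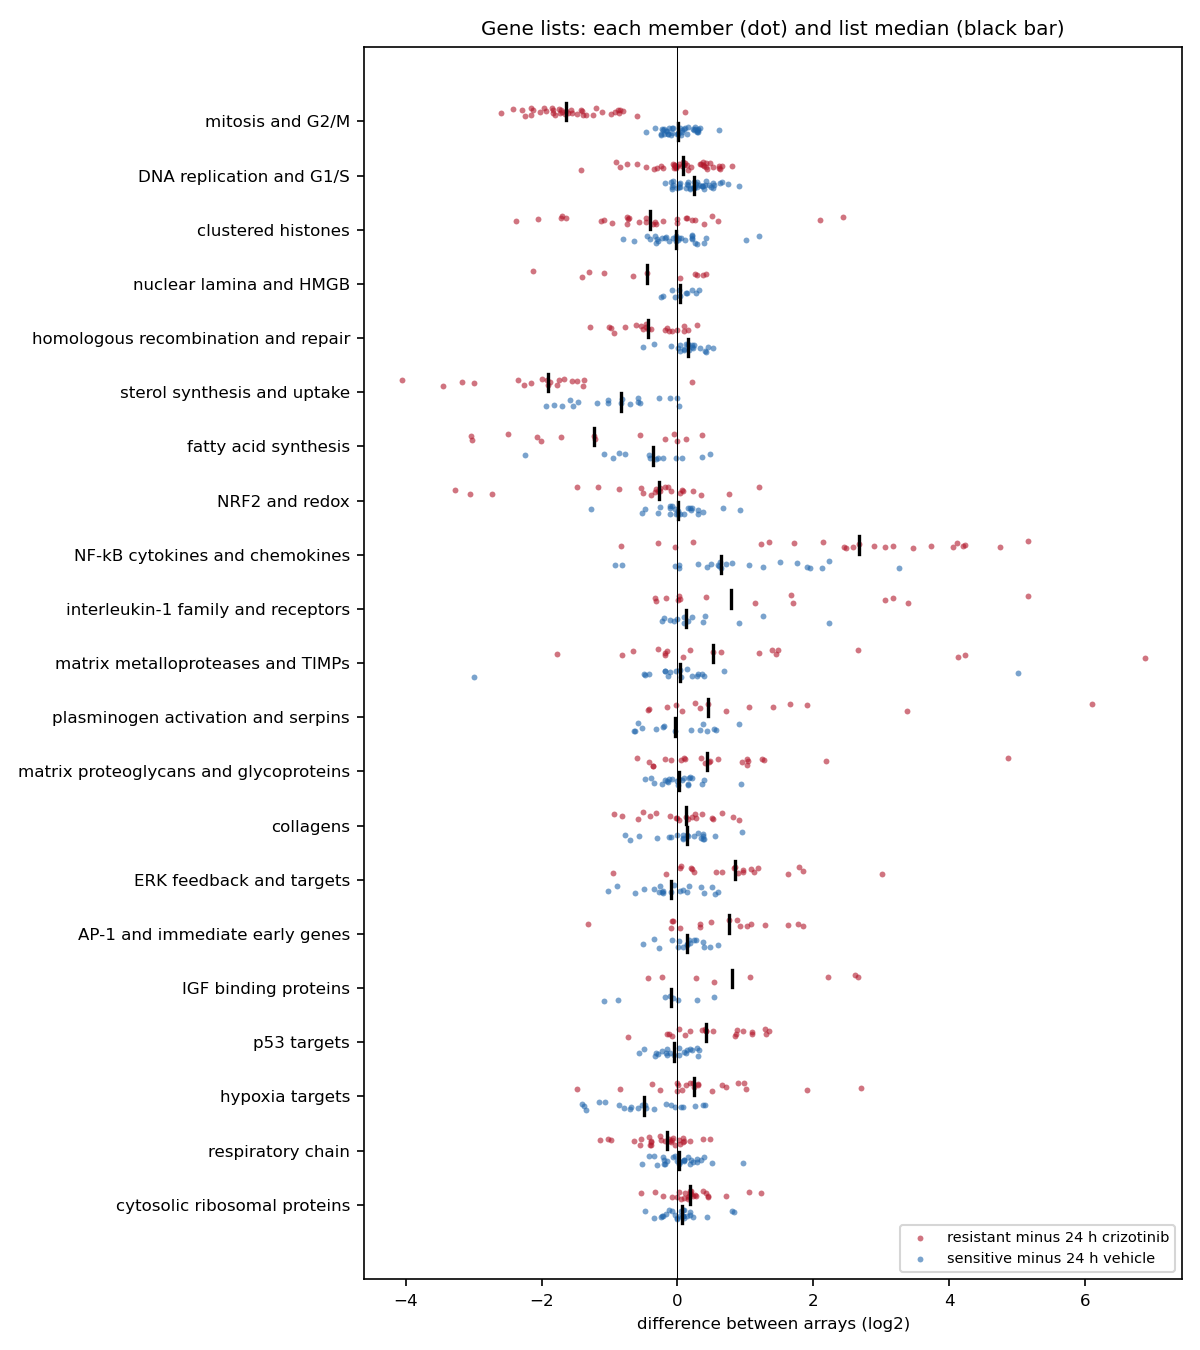
Dots are members of 21 gene lists and black bars are list medians, with the resistant minus 24-hour crizotinib difference in the upper row of each list and the sensitive minus 24-hour vehicle difference in the lower row (log2). Mitosis (-1.64) and sterol synthesis (-1.90) have the lowest drug-pair medians, and NF-kB cytokines the highest (2.67).

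Some of the largest drug-pair differences were nearly as large or larger between the drug-free arrays. E2F7, an atypical E2F repressor, read 4.67 in the resistant array and 8.31 in the 24-hour crizotinib array, against 4.25 in the sensitive and 8.61 in the vehicle array, a difference of -3.64 beside a drug-free -4.36. DCC, the netrin receptor, differed by -3.18 (drug-free -3.31), APOH, a plasma glycoprotein, by -3.50 (drug-free -3.73), and the zinc finger gene ZNF883 by -3.33 (drug-free -3.09). CT45A5, a cancer-testis gene with near-identical copies, differed by -4.81 (drug-free -3.98). In these genes both 21-day cultures were low and both 24-hour cultures high, with or without drug. EFEMP1, a fibulin of the extracellular matrix, was mixed: it read 4.12 in the resistant array and 9.23 in the 24-hour crizotinib array, against 4.16 in the sensitive and 7.22 in the vehicle array. The same mixed shape held for PLXDC2 at -4.54 (drug-free -3.33), the kinase MAP2K6 at -4.15 (drug-free -2.11) and the GABA receptor subunit GABRA2 at -4.10 (drug-free -2.08). On the higher side the drug-free differences ran the same way but were smaller. CRHBP, a binding protein of corticotropin-releasing hormone, differed by 3.90 (drug-free 1.92), the guidance cue SEMA3A by 3.54 (drug-free 1.51) and the potassium channel KCNN3 by 3.26 (drug-free 2.19).

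Small nucleolar RNAs, which guide ribosomal RNA modification, leaned one way as a class and made up 83 of the 658 higher genes. Among 337 measured, 169 reached the filter. The resistant array was at least 2-fold higher for 83 of these and lower for 1, with a median of 0.98. The drug-free median was 0.58, with 45 at least 2-fold higher in the sensitive array and 0 lower, so the class also separated cultures without drug. For 116 of the 169 the 24-hour crizotinib array was the lowest of the 4. Their part in the other results was not tested, and with protein-coding genes alone the counts were 525 higher and 650 lower. Many come in nearly identical copies that one probe may read together.

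The label of a glioblastoma line was set against marker genes. The mesenchymal glioma gene CHI3L1 read 10.56 in the resistant array and 10.05 in the 24-hour crizotinib array, against 7.38 and 7.91 in the sensitive and vehicle arrays, and CD44 lay between 10.66 and 11.26. Of 9 astrocyte markers 3 reached the filter in the resistant and 4 in the 24-hour crizotinib array, against 3 in each drug-free array. The gap junction gene GJA1, the glutamate transporter SLC1A3 and ALDOC were above it in every array. GJA1 read 9.71 and 9.38 in the resistant and 24-hour crizotinib arrays, against 8.84 and 9.23 in the sensitive and vehicle arrays. The astrocyte list had 3 members called lower, FABP7 at -2.42, SLC1A3 at -2.40 and ALDOC at -1.09, and 0 called higher. Drug-free differences of these 3 were -0.09, -0.335 and -1.27. GFAP, AQP4, S100B and ALDH1L1 and the stem markers SOX2 and OLIG2 were below the filter in every array. Of 10 neuron markers 4 passed the filter and 3 were at least 2-fold lower, SYT1 at -2.39 (drug-free -1.22), MAP2 at -1.26 (drug-free -0.67) and GAP43 at -1.11 (drug-free -0.72). Of 13 leukocyte markers 2 reached the filter in each array, CD68 and CSF1R, with PTPRC between 1.81 and 2.09, and of 11 endothelial markers 2 or 3 did, with PECAM1 and CDH5 below the filter in every array. The fibroblast list had a median of 0.50 (drug-free 0.14), 4 of 14 members (9 past the filter) higher, DCN, LUM, ACTA2 and THY1, and 1 lower, PDGFRB. The sum of the log2 values of its 14 members, past the filter or not, was 91.0 in the resistant array and 80.9 in the 24-hour crizotinib array. It was 77.8 and 75.4 in the sensitive and vehicle arrays, and COL3A1 and DPT were below the filter in every array. DCN at 4.86 and LUM at 2.19 had the list's 2 highest differences and were counted among the matrix proteoglycans too. These lists thus share genes, and the part of the fibroblast list in the matrix gene differences was not tested.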

How the data were processed

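Total RNA of 4 U87 cultures, 1 per condition, was measured on Affymetrix arrays. The authors deposited log2 expression values per gene, made with RMA, affy 1.36.1 and R 2.15.1, per the submitters' processing notes. RMA corrects background, equalises array distributions and summarises probes, which compresses differences between low values; detection calls were not used here. Groups came from the labels. Of 23786 features, 22458 had 1 symbol in the platform table and 1328 were unnamed here.

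The resistant minus 24-hour crizotinib and sensitive minus 24-hour vehicle differences were taken on the deposited scale with Python 3.11.15, numpy 2.4.6 and pandas 2.3.3. With 1 array per condition no test was possible. Genes were counted at a difference of 1 with the higher drug array at or above 4.96. The calling code was run on simulated data with differences well above the size rule planted for some of the classes. That run checks the code and says nothing about the precision of single-array values.

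The 55 gene lists, the members and the promoter motifs were chosen with earlier results of these data known, and the promoters shown after values were seen; listed genes without a feature were not analysed here. Named genes, 370 in all, leave out noncoding and provisional symbols (by RefSeq gene type and by pattern) and are the 20 highest and 20 lowest differences, the 12 highest and lowest after subtracting the drug-free difference, the 10 highest and lowest with a drug-free difference under 0.5, the 6 highest and lowest with the drug-free arrays the same way, the 8 largest of each class where 1 drug array stands alone, list members that are called or are the 2 highest or lowest, and MET, HGF, ALK and ROS1. Other genes were named after their values were seen. Promoters of 27305 genes came from RefSeq on GRCh38.p14. Alternatives were a 1.5-fold rule, no filter, a filter at 6, centring, a lowess trend on level, unnamed features and a drug-free bound of 0.25.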

Additional observations from a re-analysis of the deposited data

Results flagged for a closer look

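For 5 genes the drug arrays and the drug-free arrays were at least 2-fold apart in opposite directions, and the difference between the pairs was not tested because each condition has 1 array. IGFBP1, an IGF binding protein, differed by 2.66 between the resistant and the 24-hour crizotinib arrays and by -1.08 between the sensitive and vehicle arrays, with 9.33 and 6.67 in the drug arrays, resistant first, and 5.64 and 6.72 without drug, sensitive first. S1PR3, a sphingosine 1-phosphate receptor, differed by 1.03 beside a drug-free -1.25, and TREM1, a myeloid receptor, by 1.01 beside -1.11. ID3, an inhibitor of helix-loop-helix factors, differed by -1.32 beside 1.02, with 6.41 and 7.73 in the drug arrays, resistant first, and 7.56 and 6.54 in the sensitive and vehicle arrays. CDK15, a cyclin-dependent kinase, differed by -1.37 beside 2.66, with 3.64 and 5.01 in the drug arrays, resistant first, and 5.56 and 2.90 without drug, sensitive first.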

How the results depend on the processing

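A 1.5-fold rule raised every count by over 1.5 times: to 1641 genes higher and 1793 lower in the resistant array, 1118 and 1324 of them with a drug-free difference under 0.5 and 388 and 340 with the drug-free arrays the same way. It gave 567 genes with the resistant array alone high, 499 alone low, 324 with the 24-hour crizotinib array alone low and 538 alone high. With the drug-free bound at 0.25, 174 higher and 245 lower genes had a drug-free difference near 0, against 343 and 433 at 0.5. The other settings, no filter, a filter at 6, centring, a lowess trend and unnamed features, left each of the 10 counts within 1.5 times. For the 370 named genes, centring moved no difference by more than 0.00992 and the lowess trend none by more than 0.034, and the sign changed for 1 gene, TRIML2, under the lowess trend, from a difference of 0.0118. No paired analysis was possible because each condition has 1 array, and leaving out an array would remove its condition. With 1 array per condition the precision of each value is unknown, and genes near 2-fold lie on either side by little: SELENOW at 1.00 and TERF2IP at 0.998 were inside and outside on the higher side, ITGA11 at -1.0008 and BTN3A2 at -0.9998 on the lower.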

Other observations

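KCNJ2 and SCN9A were named after their values were seen, and the single genes of this paragraph stand for no gene group. KCNJ2, an inward rectifier potassium channel, read 3.93 in the resistant array and 6.96 in the 24-hour crizotinib array, against 3.6 and 4.72 in the sensitive and vehicle arrays. SCN9A, a sodium channel, differed by -2.94 (drug-free -1.02), and SYT1, the synaptic vesicle calcium sensor, by -2.39 (drug-free -1.22). PCDH18, a protocadherin, read 4.44 and 8.47 in the resistant and 24-hour crizotinib arrays, against 4.59 and 6.04 in the sensitive and vehicle arrays. Clustered protocadherins had 57 measured members, and of the 23 past the filter 9 were at least 2-fold lower and 1 higher. Over all genes the shares were 5.96% and 5.46%. Clustered protocadherins are paralogs whose probes can share signal, and their median over the 23 past the filter was -0.82, beside a drug-free -0.40.

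Genes low in the resistant array alone reached beyond cell division. The glutamate transporter SLC1A3 read 5.44 in the resistant array and 7.84 in the 24-hour crizotinib array, against 7.41 and 7.75 in the sensitive and vehicle arrays. TLR3, a receptor for double-stranded RNA, read 4.53 and 7.06 in the drug arrays, resistant first, and 5.69 and 6.21 in the sensitive and vehicle arrays. The clock gene PER3 read 5.63 and 7.83 in the resistant and 24-hour crizotinib arrays, against 6.65 and 7.10 in the sensitive and vehicle arrays. Of 18 clock genes 17 passed the filter, and PER3 and CLOCK were at least 2-fold lower (5.96% over all genes). CLOCK differed by -1.03 (drug-free -0.26) but was not apart in the resistant array alone.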
